A study of Mus musculus with 40 samples.

Results

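Multipotent progenitors (MPPs) of mouse bone marrow that had diluted a pulse of H2B-GFP were compared between mice labelled KO for Hira and WT mice, in 3 KO and 3 WT libraries of RNA sequencing, out of 40 libraries in the whole study. H2B-GFP is a green histone that stays on chromatin and is diluted at each division, so GFP-low cells have divided more than GFP-high cells since the pulse ended. The comparison took the 6 libraries of the GFP-low MPP table and the genes with an FPKM (fragments scaled to transcript length and sequencing depth) of 1 or more in at least 3 of them, which kept 10621 of 16344 genes. Just inside that limit stood 330 genes with 3 columns at 1 FPKM or more (median of their mean FPKM 1.05), and just outside it 422 genes with 2 such columns (median 0.858). The KO mice were C57BL/6 and labelled HIRA KO, and the protocol for GFP sorting names Mx1-Cre, Hira fl/fl, Rosa26-M2rtTA and TetOP-H2B-GFP as the alleles. The WT mice were C57BL/6 and labelled WT, and the labels do not say which of these alleles they carried. As described for the GFP cohort, doxycycline (2 mg/ml, sweetened by sucrose at 10 mg/ml) was drunk for 6 weeks and then stopped. The mice then received 2 doses of 20 µg poly(I:C), and marrow was taken 15 days after the last dose, at the end of a 17-day chase. Mx1-Cre is switched on by interferon, which poly(I:C) induces, and it is active in other tissues than blood as well. Age, sex and the number of sorted cells are not given for these mice. The libraries held 5818909 to 8949273 reads on genes each.

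HIRA is a chaperone that places H3.3, a variant of histone H3, into chromatin independently of DNA replication, together with UBN1 or UBN2, CABIN1 and ASF1A. MPPs stand below the blood stem cell (HSC) and feed all blood lineages, and they are already divided into cells that lean towards the erythroid and megakaryocytic, the myeloid or the lymphoid side. The comparison asks how transcripts differ between libraries labelled KO for Hira and WT, in progenitors that have gone through divisions.

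Markers of MPPs were present in every library, with Kit at 96.6 to 148 FPKM and Cd34 at 109 to 151 FPKM, while of the HSC markers Slamf1 stayed below 1 FPKM throughout and Procr was at 26 to 44.9 FPKM. RNA of granulocytes was also present in all 6 libraries: the summed level of 5 of 5 granulocyte markers was 1947 to 5663 FPKM in KO and 2551 to 4881 FPKM in WT. Of the 4 T and NK cell markers, Cd3e and Cd8a were 0 in every library except WT replicate 1. Cd4 was at 0.133 to 0.938 FPKM over the 6 libraries. Ncr1 was 0 in every KO library, against 1.19, 0.156 and 0 FPKM in WT. Xist, the RNA of the inactive X chromosome, stood at 30.2, 0.286 and 31.1 FPKM in KO, against 30.2, 30.2 and 34.0 FPKM in WT, and the Y-linked gene Eif2s3y reached 16.5 FPKM in KO replicate 2 alone. KO replicate 2 thus differed from the other 5 libraries in its sex-linked RNA, and the part of this in the results was not tested. The first principal component (37.3% of the variance) set KO replicate 3 apart at 32.9, with the other KO libraries at -3.22 and 8.96 and the WT libraries between -16.0 and -9.81.

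Hira itself did not separate the groups. It was at 1.25, 1.58 and 2.15 FPKM in KO, against 1.72, 2.07 and 2.24 FPKM in WT, with means of 1.66 ± 0.454 FPKM in KO and 2.01 ± 0.264 FPKM in WT (SD, n = 3 each). The groups overlapped, with a log2 difference of -0.19 (95% interval -0.59 to 0.21). A two-sided exact permutation test gave p = 0.3, where 3 against 3 cannot go below 0.1, and 41 to 72 reads stood behind each value. A level over the whole gene does not show whether a floxed part is missing, so the Hira level checks neither label, and KO below means the libraries labelled KO. Among the partners of HIRA, Asf1a, the histone H3-H4 chaperone that hands histones to HIRA, was at 14.7, 19.6 and 21.5 FPKM in KO, against 9.71, 10.1 and 8.82 FPKM in WT. Its groups did not overlap, but it missed the threshold (log2 difference 0.88, 95% interval 0.53 to 1.23, adjusted p = 0.0672). H3f3a, 1 of the 2 genes for H3.3, was at 112, 95.9 and 114 FPKM in KO, against 76, 80.2 and 78.8 FPKM in WT (log2 difference 0.45, adjusted p = 0.144), and the other, H3f3b, was at 274, 342 and 370.1 FPKM in KO, against 240.4, 269.5 and 292 FPKM in WT with overlapping groups (log2 difference 0.29, adjusted p = 0.427). The remaining partners Ubn1, Ubn2 and Cabin1 had log2 differences of 0.04, 0.17 and -0.07, none past the test.

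Of the 10621 genes tested, 34 (0.32%) passed at an adjusted p under 0.05, 24 higher (0.226%) and 10 lower (0.0942%) in KO. All log2 differences are of FPKM + 1, KO minus WT, which understates the change of genes with low values, and adjusted p values are from limma over all tested genes. Unadjusted p values under 0.05 were reached by 1304 genes (12.3%), and the groups did not overlap in 1033 genes with higher values in KO (9.73%) and 991 with lower ones (9.33%). The call count rested on single libraries: it was 0 without KO replicate 2 (limma, 1530 genes at an unadjusted p under 0.05), 0 without WT replicate 3 (808 genes), 2 without WT replicate 2, 6 without KO replicate 3, 17 without WT replicate 1 and 39 without KO replicate 1. In none of the 34 genes did the groups overlap, so leaving out 1 library could not change their direction. Their log2 differences stayed within 0.831 to 1.17 times the full value. With libraries rescaled to 1 total, 27 genes were called higher and 6 lower. That total includes Rn45s, a ribosomal RNA entry at 45450 to 79894 FPKM. With Rn45s left out of the total, 35 genes were called, 74.3% of them higher, against 70.6% as reported. Of the 34 genes, 5 were microRNA genes (2 higher, 3 lower) at 16 reads or fewer a library, whose mature RNAs carry no polyA tail. In 6 of the 34 (the microRNA genes Mir103-2, Mir421, Mir6955 and Mir7001 and the genes Gml2 and Tmem56), values of 1 FPKM or more stood in 1 group only, so these genes entered the test through the group where they are high and had to differ; the other 28 reached 1 FPKM in both groups.

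**Figure D1:**
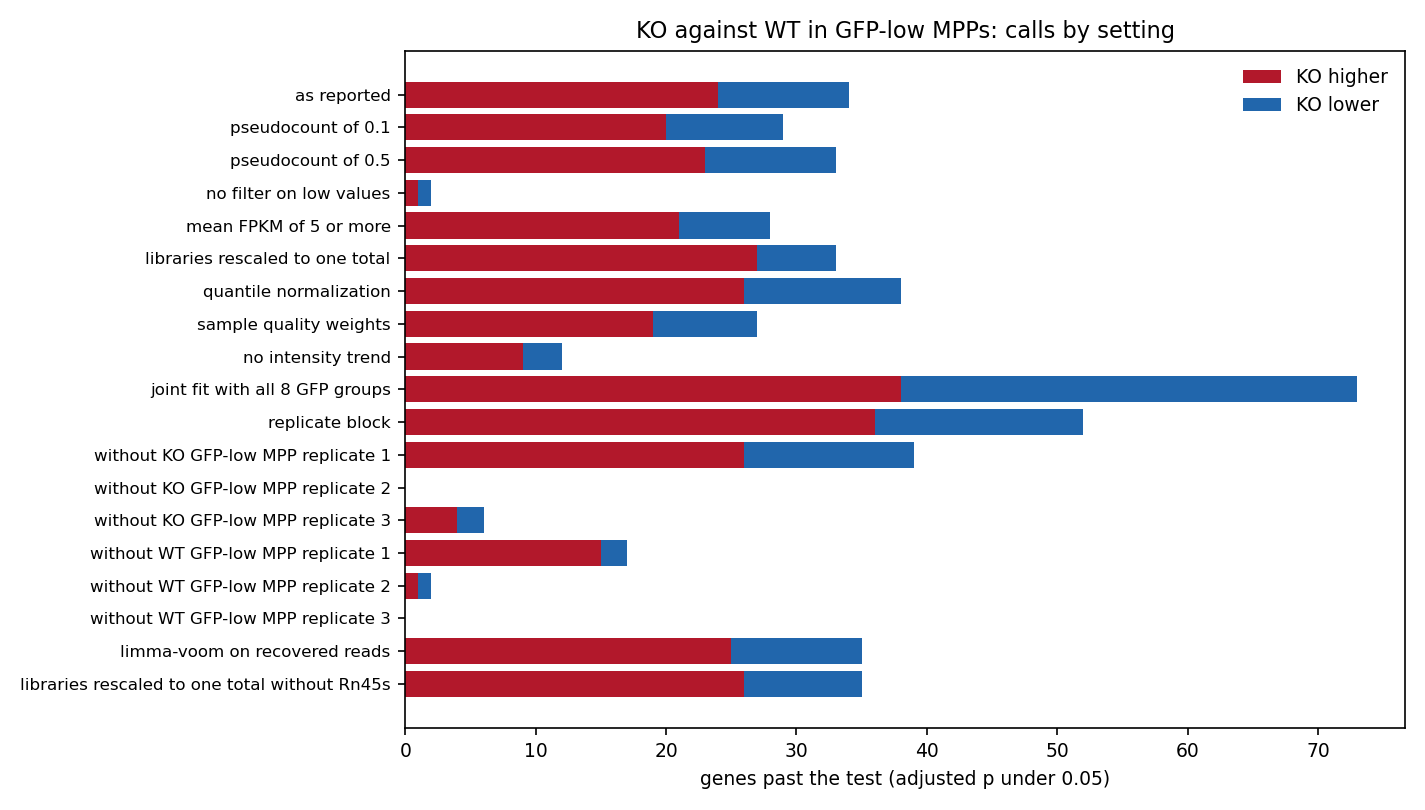
Number of genes past the test (adjusted p under 0.05) for KO against WT in GFP-low MPPs as reported and under each of 18 other settings, split into KO higher (red) and KO lower (blue). The reported bar stands at 34, the joint fit reaches 73, and the bars without KO replicate 2 and without WT replicate 3 are at 0.

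**Figure D2:**
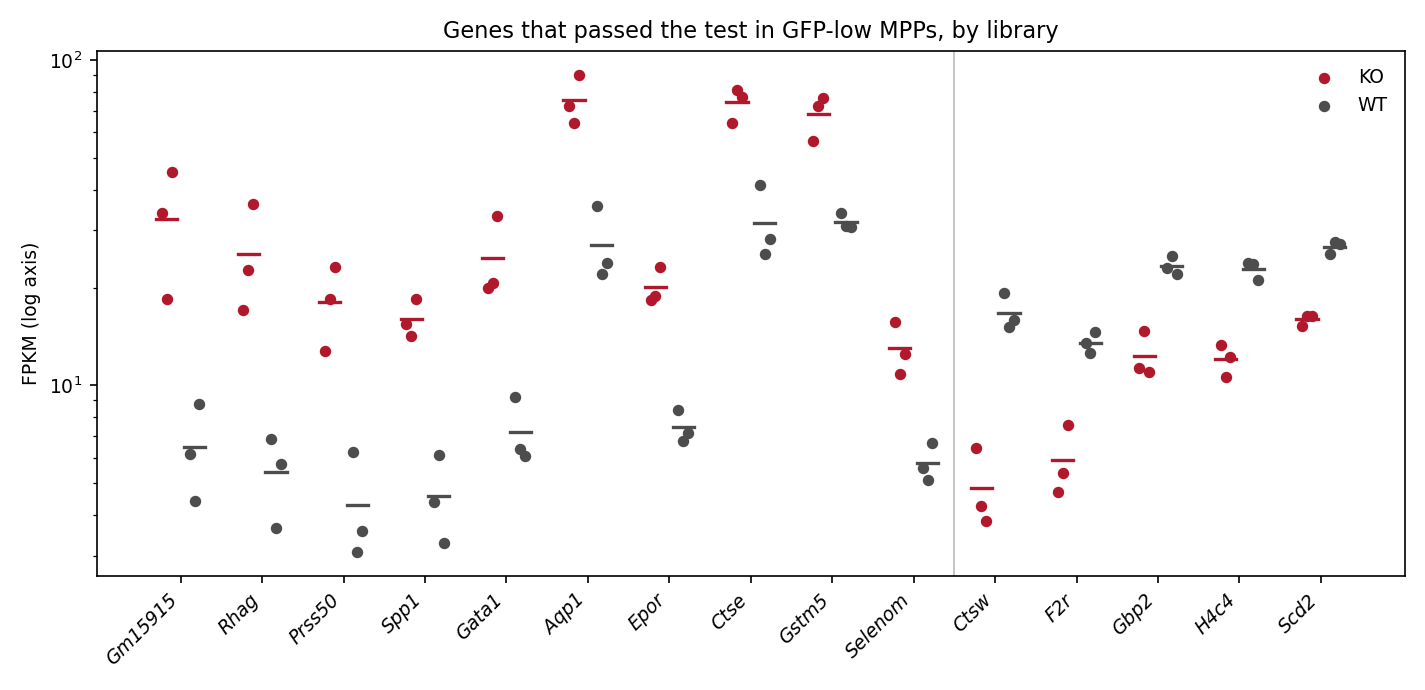
FPKM (log axis) of the 10 largest rises and the 5 falls among genes that passed with a mean log2(FPKM + 1) of 3 or more, in each GFP-low MPP library; points are libraries (KO left and red, WT right and grey) and short lines are means of 3. KO and WT overlap in none of the 15 genes, because no overlap was a condition for picking them.

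Of the 24 rises (0.226% of all genes tested), 5 were among the 28 tested genes of the erythroid list. Gata1, Epor, Rhag, Aqp1 and Car2 rose in KO, and 25 of the 28 tested members of the erythroid list lay above 0, against 50.4% of all genes. These calls were not firm when each of the 6 libraries was left out in turn. Epor kept its call in 3 of these fits, Gata1 in 2, and Rhag, Aqp1 and Car2 in 1 each. Red cell formation is driven by the transcription factors GATA1 and KLF1, which bind GATA and CACCC motifs, and by the erythropoietin receptor, after which membrane, heme and globin genes are switched on in turn.

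Gata1, the master transcription factor of erythroid, megakaryocyte and mast cells, was at 19.9, 20.6 and 33.2 FPKM in KO, against 9.2, 6.4 and 6.06 FPKM in WT. Every KO library lay above every WT library, with the highest WT value in replicate 1 (log2 difference 1.62, 95% interval 1.12 to 2.12, adjusted p = 0.0350). Klf1, the erythroid Krüppel-like factor, was at 48.4, 41.7 and 74.8 FPKM in KO, against 29, 14.1 and 16.4 FPKM in WT, also without overlap, but did not pass (log2 difference 1.45, adjusted p = 0.0905). Gfi1b, a repressor needed in erythroid and megakaryocyte cells, was at 62.4, 61.1 and 70.7 FPKM in KO, against 47.4, 32 and 34.5 FPKM in WT and did not pass (log2 difference 0.77, adjusted p = 0.0941).

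Epor encodes the erythropoietin receptor, through which the hormone keeps erythroid progenitors alive. It was at 18.3, 18.9 and 23.2 FPKM in KO, against 8.4, 6.76 and 7.14 FPKM in WT (log2 difference 1.32, 95% interval 1.01 to 1.63, adjusted p = 0.0228), with 153 to 547 reads a library. Its lowest KO library stood well above its highest WT library, and the spread within each group was small. Tfrc, the transferrin receptor that brings in iron, was at 9.59, 11.3 and 15.3 FPKM in KO, against 6.99, 6.21 and 5.76 FPKM in WT without overlap and did not pass (log2 difference 0.82, adjusted p = 0.109).

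Rhag and Aqp1, both proteins of the red cell membrane, rose as well. Rhag, the Rh-associated glycoprotein, was at 17, 22.7 and 36.2 FPKM in KO, against 6.86, 3.66 and 5.76 FPKM in WT (log2 difference 2.00, 95% interval 1.37 to 2.63, adjusted p = 0.0350). Aqp1, the water channel of the red cell membrane, was at 72.2, 64.3 and 90.3 FPKM in KO, against 35.6, 22 and 23.8 FPKM in WT (log2 difference 1.46, 95% interval 1.02 to 1.91, adjusted p = 0.0350). Both had their highest value in KO replicate 3 and their highest WT value in WT replicate 1, with no overlap. Car2, the cytosolic carbonic anhydrase, was the most abundant gene that passed, at 712, 870.2 and 895 FPKM in KO, against 494, 482 and 410.0 FPKM in WT (log2 difference 0.83, 95% interval 0.54 to 1.12, adjusted p = 0.0447). Among members that did not pass, Sphk1, a sphingosine kinase, had log2 difference 1.75, adjusted p = 0.0528, and Blvrb, biliverdin reductase B, had log2 difference 1.15, adjusted p = 0.0528. Car1, the other carbonic anhydrase of the list, was at 460.2, 518 and 1039.9 FPKM in KO, against 320.0, 205 and 154 FPKM in WT (log2 difference 1.54, adjusted p = 0.114), and none of these 3 genes had overlapping groups.

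The list held 34 genes, of which 31 were in the table and 28 were tested. Of these, 5 passed upward and 0 downward, where 0.226% of all genes were called higher and 0.0942% lower. In 18 the groups had no overlap with KO higher (64.3%, against 9.73% of all genes). The median log2 difference was 0.82, against 0.00 over all genes. Several genes of the last steps of red cell formation lay elsewhere. Hba-a1, an alpha globin gene, was at 358, 167 and 48.5 FPKM in KO, against 238, 91.7 and 118 FPKM in WT (log2 difference 0.06, adjusted p = 0.979), Slc4a1, the anion exchanger of mature red cells, at 12.5, 8.06 and 0.448 FPKM in KO, against 13.2, 5.25 and 5.7 FPKM in WT (log2 difference -0.58, adjusted p = 0.774), and Alas2, the erythroid enzyme that starts heme synthesis, at 22.1, 9.4 and 1.05 FPKM in KO, against 12.5, 6.12 and 6.57 FPKM in WT (log2 difference -0.19, adjusted p = 0.937). These 3 genes overlapped between the groups and were lowest in KO replicate 3, the library in which Gata1, Klf1 and Epor were highest. The globin genes Hba-a1, Hbb-bt and Hbb-b1 summed to 1886, 910.8 and 347.2 FPKM in KO, against 1255, 476.1 and 609 FPKM in WT, and these sums overlapped; their part in the rises was not tested. In bulk RNA, more cells of a type cannot be told apart from more RNA per cell, and this holds for each gene group below. Without any 1 library, the median of the list stayed between 0.77 and 0.95.

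Promoter windows of 3 of these genes are shown because the GATA and CACCC motifs are those that GATA1 and KLF1 bind. They run from 250 bases before to 50 bases after the start on which the RefSeq window of the gene is set, 5′ to 3′ on the gene's strand, on GRCm38.p6. For Gata1 and Rhag that start lies inside the outer bounds of the gene in RefSeq. Epor lies on the minus strand at chr9:21963527-21963826, Gata1 on the minus strand at chrX:7967861-7968160 and Rhag on the plus strand at chr17:40810899-40811198. Capitals mark a GATA match (AGATAA or TGATAA, on either strand) in Epor and Rhag and a CACCC match (CACACCC, on either strand) in Gata1.
Epor: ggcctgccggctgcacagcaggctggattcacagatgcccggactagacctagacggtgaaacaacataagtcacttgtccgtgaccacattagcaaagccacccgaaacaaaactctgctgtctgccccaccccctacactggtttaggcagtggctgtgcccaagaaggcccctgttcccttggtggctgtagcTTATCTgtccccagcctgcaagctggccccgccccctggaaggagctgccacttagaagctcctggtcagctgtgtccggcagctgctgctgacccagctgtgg
Gata1: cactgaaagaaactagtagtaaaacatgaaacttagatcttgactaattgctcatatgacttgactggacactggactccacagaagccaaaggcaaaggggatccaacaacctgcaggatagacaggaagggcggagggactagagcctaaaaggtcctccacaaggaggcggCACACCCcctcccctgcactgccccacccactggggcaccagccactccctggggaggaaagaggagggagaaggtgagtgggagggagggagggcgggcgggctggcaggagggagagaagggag
Rhag: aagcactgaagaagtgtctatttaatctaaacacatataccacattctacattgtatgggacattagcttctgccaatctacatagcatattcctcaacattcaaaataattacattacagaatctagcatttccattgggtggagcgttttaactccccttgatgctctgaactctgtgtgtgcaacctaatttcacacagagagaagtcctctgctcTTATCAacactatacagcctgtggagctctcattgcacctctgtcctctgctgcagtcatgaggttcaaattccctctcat

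Windows were listed for 23 of the 28 tested erythroid genes, and 14 of their 29 windows (48.3%) held a GATA match, against 10.2% of the 10809 windows of all tested genes. A CACCC match stood in 4 of the 29 windows (13.8%), against 8.25% of the windows of all tested genes. The Aqp1 window held neither motif. These shares cover all tested list members with a window, also those that did not rise, so they describe the list and not the KO effect. A match is a description of these letters only, and binding was not measured.

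**Figure D3:**
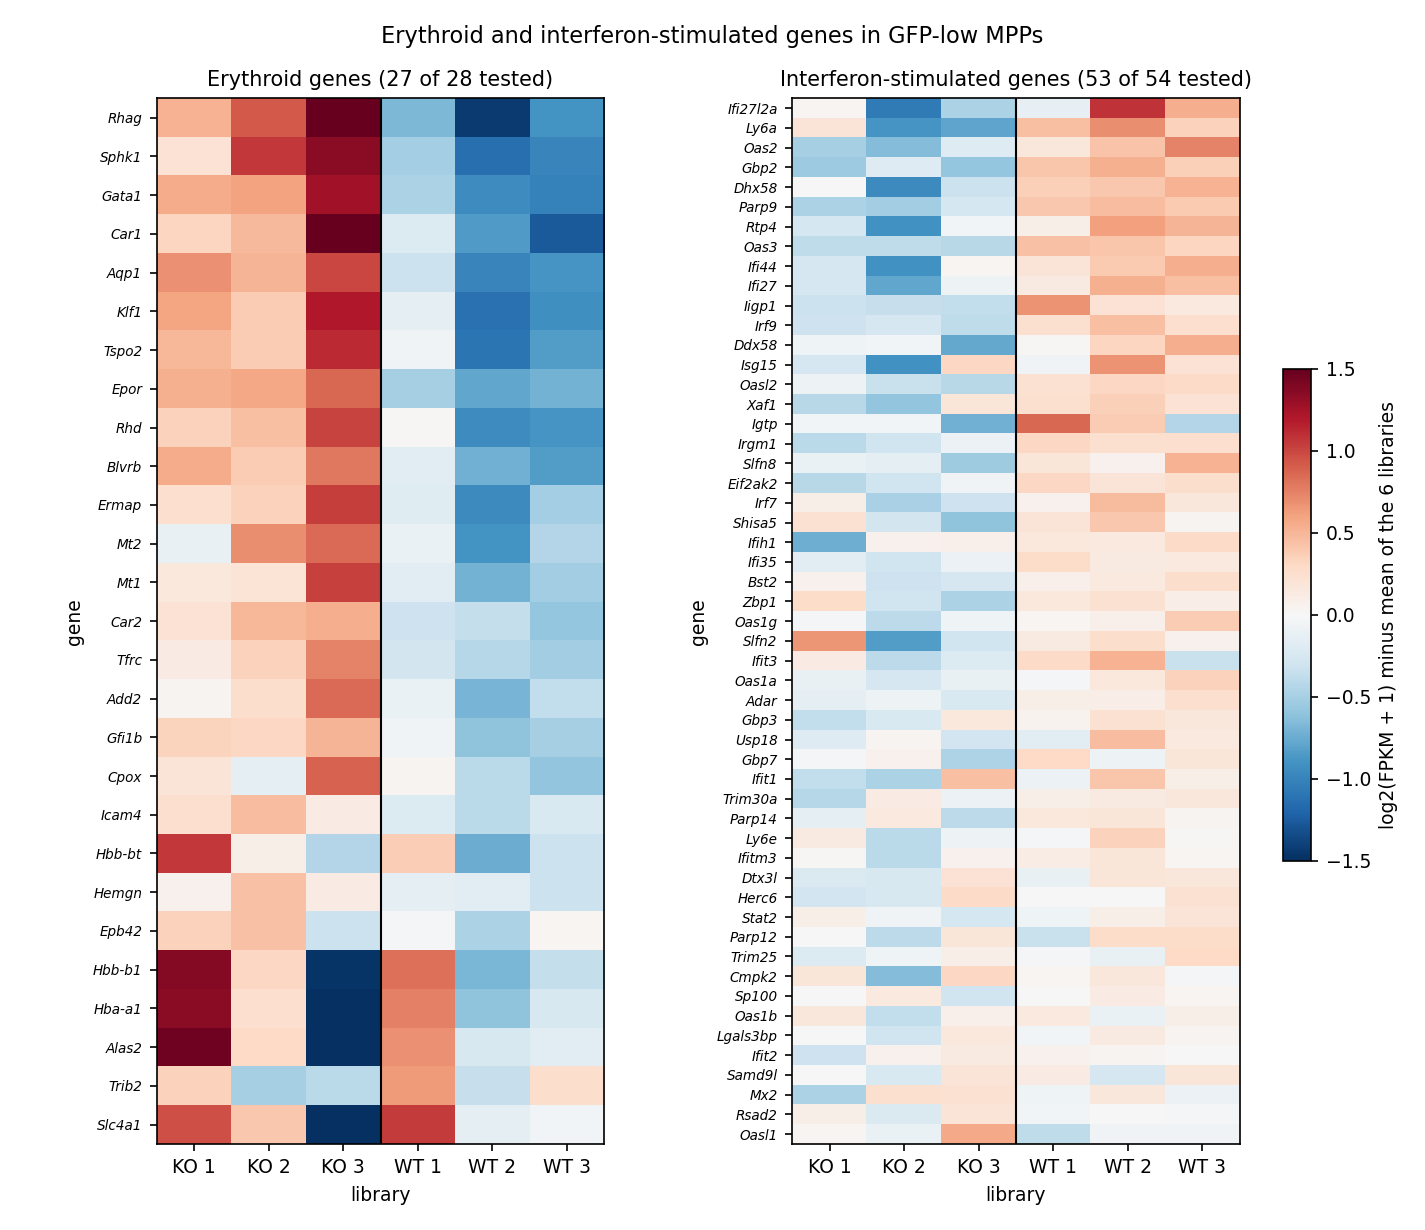
Each row is a tested gene of the list (1 of each list is not shown) and each column a GFP-low MPP library (KO left, WT right); colour is log2(FPKM + 1) minus the mean of the 6 libraries, with values beyond 1.5 in either direction shown in the end colour. Erythroid genes from Rhag to Icam4 are mostly red in KO and blue in WT, the globins, Alas2 and Slc4a1 follow single libraries, and most interferon-stimulated genes are blue in KO and red in WT.

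Some genes of glutathione conjugation and aldehyde oxidation were also among the rises. Their list, like the others, was chosen with earlier results of these data known, so its counts and shares are description only. Aldh1a7, a cytosolic aldehyde dehydrogenase, and the glutathione S-transferases Gstm2 and Gstm5, which attach glutathione to reactive compounds, rose in KO. Aldh1a7 was at 8.9, 12.3 and 13.5 FPKM in KO, against 2.78, 1.2 and 0.764 FPKM in WT (log2 difference 2.34, 95% interval 1.71 to 2.97, adjusted p = 0.0238). Gstm2 was at 4.46, 7.85 and 6.77 FPKM in KO, against 1.14, 1.00 and 0.332 FPKM in WT (log2 difference 2.01, 95% interval 1.47 to 2.56, adjusted p = 0.0238), and Gstm5 at 56.6, 72.3 and 76.4 FPKM in KO, against 33.8, 30.9 and 30.7 FPKM in WT (log2 difference 1.07, 95% interval 0.77 to 1.37, adjusted p = 0.0238). Each gene had all KO libraries above all WT libraries. Gstm2 and Gstm5 lie 83017 bases apart on chromosome 3, and reads of close members of this family can be split between them. Gstp3, another glutathione S-transferase, rose at low levels (4.16, 5.19 and 3.25 FPKM in KO, against 1.3, 1.41 and 0.716 FPKM in WT, log2 difference 1.28, adjusted p = 0.0468), but was not on the list. Mgst3, a microsomal glutathione S-transferase, was at 44.5, 43.7 and 42.3 FPKM in KO, against 27.7, 28 and 21.2 FPKM in WT and missed the threshold (log2 difference 0.75, adjusted p = 0.0646). Of the 26 tested members of this list, 3 passed upward and 0 downward, 8 had no overlap with KO higher (30.8%) and the median log2 difference was 0.18, where over all genes 0.226% were called higher and 9.73% had no overlap with KO higher. Other members lay near 0: Gstp1, Gpx1 and Gsr, all well expressed, had log2 differences of -0.18, -0.02 and 0.03.

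Other rises among the named genes belonged to no list. Spp1 encodes osteopontin, a secreted matrix protein of the marrow niche, and was at 15.4, 14.2 and 18.5 FPKM in KO, against 4.37, 6.12 and 3.27 FPKM in WT (log2 difference 1.63, 95% interval 1.19 to 2.08, adjusted p = 0.0238). Ctse, an aspartic protease found in erythroid cells among others, was at 64.3, 81.1 and 77.2 FPKM in KO, against 41.5, 25.4 and 28.2 FPKM in WT (log2 difference 1.23, 95% interval 0.81 to 1.64, adjusted p = 0.0421). Prss50, a serine protease first known from testis, was at 12.7, 18.5 and 23.1 FPKM in KO, against 6.27, 3.08 and 3.57 FPKM in WT (log2 difference 1.86, adjusted p = 0.0350). In these 3 genes the KO libraries lay above all WT libraries. Selenom, a selenoprotein of the endoplasmic reticulum, was at 15.7, 10.8 and 12.5 FPKM in KO, against 5.56, 5.13 and 6.65 FPKM in WT (log2 difference 1.04, adjusted p = 0.0463). Gm15915, a long noncoding RNA, was at 34, 18.4 and 45.2 FPKM in KO, against 6.16, 4.4 and 8.79 FPKM in WT (log2 difference 2.12, adjusted p = 0.0421). Its gene overlaps Ntn4, and since strandedness of the libraries is not stated, overlapping genes cannot be fully told apart. The same holds for Gata1, which overlaps Gm39488 and Gm52419, and for Gstm5, which overlaps 4933431E20Rik.

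Nr4a1, an orphan nuclear receptor that is induced by many stimuli and is also on the lists of HSC-enriched and quiescence genes, was at 3.02, 4.3 and 3.67 FPKM in KO, against 1.07, 0.957 and 0.635 FPKM in WT (log2 difference 1.30, 95% interval 0.91 to 1.70, adjusted p = 0.0350). It was the 1 member that passed of the 22 tested immediate-early and stress genes, where 0.226% of all genes were called higher. Of that list, 19 lay above 0 (50.4% of all genes did), 4 had no overlap with KO higher (18.2%, against 9.73% of all genes), and the median log2 difference was 0.22. Gadd45a, a growth arrest gene on that list and on the p53 list, was at 3.45, 3.1 and 3.25 FPKM in KO, against 1.13, 1.63 and 1.74 FPKM in WT (log2 difference 0.78, adjusted p = 0.0955). Gem, a small GTPase, was at 34.3, 33.3 and 26.6 FPKM in KO, against 14.4, 16.8 and 13.5 FPKM in WT (log2 difference 1.03, adjusted p = 0.0350). Both genes had no overlap between the groups.

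Gbp2, Parp9 and Oas3, all interferon-stimulated genes, fell in KO, and 52 of the 54 tested members of that list had log2 differences below 0. Interferons bind receptors that activate a transcription factor complex holding IRF9, which binds the interferon-stimulated response element (ISRE) and switches on many antiviral and antigen presentation genes. Of 58 genes on the list, 54 were tested, and 3 passed, all downward, against 0.0942% of all genes. In 24 of the 54 the groups did not overlap with KO lower (44.4%, against 9.33% of all genes) and in 0 with KO higher, and the median log2 difference was -0.33.

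Gbp2, a guanylate-binding protein that acts against intracellular pathogens, was at 11.3, 14.7 and 11 FPKM in KO, against 23, 25.1 and 22 FPKM in WT (log2 difference -0.88, 95% interval -1.19 to -0.57, adjusted p = 0.0468). Parp9, an ADP-ribosyltransferase family member of the interferon response, was at 4.43, 4.29 and 5.31 FPKM in KO, against 9.05, 9.42 and 8.9 FPKM in WT (log2 difference -0.84, 95% interval -1.13 to -0.55, adjusted p = 0.0421). Oas3, a sensor of double-stranded RNA that makes oligoadenylate, was at 3.33, 3.34 and 3.24 FPKM in KO, against 6.67, 6.52 and 6.04 FPKM in WT (log2 difference -0.78, 95% interval -1.06 to -0.51, adjusted p = 0.0468). In all 3, every KO library lay below every WT library, and the values within a group were close. None of the 3 passed in any fit that left out 1 library, and the highest adjusted p (limma) over all settings run was 0.224 for Gbp2, 0.222 for Parp9 and 0.224 for Oas3.

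Irf9, the DNA-binding part of that complex, was at 10.2, 10.7 and 9.66 FPKM in KO, against 15.4, 17.9 and 15.5 FPKM in WT, without overlap, and missed the threshold (log2 difference -0.63, adjusted p = 0.0858). Isg15, a ubiquitin-like protein, was at 8.96, 5.33 and 13.7 FPKM in KO, against 10.5, 17.9 and 12.8 FPKM in WT (log2 difference -0.56, adjusted p = 0.473), and Ifit1 and Rsad2 had log2 differences of -0.27 and 0.05. Isg15, Ifit1 and Rsad2 overlapped between the groups.

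Antigen presentation genes of MHC class I, most of which interferon also induces, gave no call. None of 23 tested members passed, 19 lay below 0, 10 had no overlap with KO lower (43.5%, against 9.33% of all genes) and the median log2 difference was -0.36. H2-T22, a nonclassical class I gene, was at 13.3, 14.7 and 12.6 FPKM in KO, against 22.2, 22.2 and 18.2 FPKM in WT (log2 difference -0.59, adjusted p = 0.109), and Tapbp, which loads peptides onto class I molecules, at 65.1, 48.1 and 52.5 FPKM in KO, against 81.2, 81.4 and 76.5 FPKM in WT (log2 difference -0.53, adjusted p = 0.148). H2-K1, a classical class I heavy chain, was at 687, 657 and 543 FPKM in KO, against 814, 834 and 717 FPKM in WT (log2 difference -0.33, adjusted p = 0.330), without overlap. Among 12 tested class II genes, 10 lay below 0 with a median of -0.34, which ran from -0.54 without KO replicate 1 to -0.14 without KO replicate 3. In each direction 1 of the 12 had no overlap (8.33%, against 9.33% of all genes with KO lower and 9.73% with KO higher). The member with KO higher, Ifi30, a lysosomal thiol reductase, was at 32.6, 24.2 and 35.8 FPKM in KO, against 17.8, 16.4 and 16.5 FPKM in WT (log2 difference 0.82, adjusted p = 0.0858).

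Ly6a encodes Sca-1, an interferon-induced surface protein commonly used to gate MPPs. It was at 146, 68.7 and 73.4 FPKM in KO, against 174, 207 and 162 FPKM in WT, with KO replicate 1 nearest to WT (log2 difference -0.99, 95% interval -1.58 to -0.40, adjusted p = 0.181), and did not pass. Other MPP markers shifted less: Cd34 had a log2 difference of -0.27, Kit of 0.32 and Cd27 of -0.34. Of the 23 tested genes of MPP identity, 0 passed, 7 had no overlap with KO lower (30.4%, against 9.33% of all genes) and 4 with KO higher (17.4%, against 9.73%). Their median was -0.20, and with 1 library left out it ran from -0.23 without KO replicate 2 to -0.09 without KO replicate 3.

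The promoter windows of Gbp2 and Oas3 are shown for the ISRE core. Gbp2 lies on the plus strand at chr3:142620413-142620712 and Oas3 on the minus strand at chr5:120777610-120777909 of GRCm38.p6, from RefSeq. Capitals mark the match to GAAANNGAAA, searched on both strands.
Gbp2: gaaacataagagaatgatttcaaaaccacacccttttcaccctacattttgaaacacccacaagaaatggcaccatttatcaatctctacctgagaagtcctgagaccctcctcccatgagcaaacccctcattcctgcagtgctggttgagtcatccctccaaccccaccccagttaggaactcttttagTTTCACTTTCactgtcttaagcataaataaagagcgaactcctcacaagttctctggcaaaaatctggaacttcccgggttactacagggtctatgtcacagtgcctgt
Oas3: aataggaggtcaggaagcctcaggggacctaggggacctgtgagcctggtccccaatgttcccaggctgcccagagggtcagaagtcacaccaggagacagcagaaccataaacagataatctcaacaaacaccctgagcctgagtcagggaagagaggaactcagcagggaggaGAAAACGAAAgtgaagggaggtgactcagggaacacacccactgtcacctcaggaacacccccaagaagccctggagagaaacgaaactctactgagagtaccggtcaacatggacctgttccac

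Of 51 windows of 39 tested interferon-stimulated genes, 23 (45.1%) held the ISRE core, against 3.19% of the 10809 windows of all tested genes. Parp9 has no window in the table. The share covers all tested list members with a window, whether or not they fell, so it describes the list and not the KO effect. Binding was not measured.

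**Figure D4:**
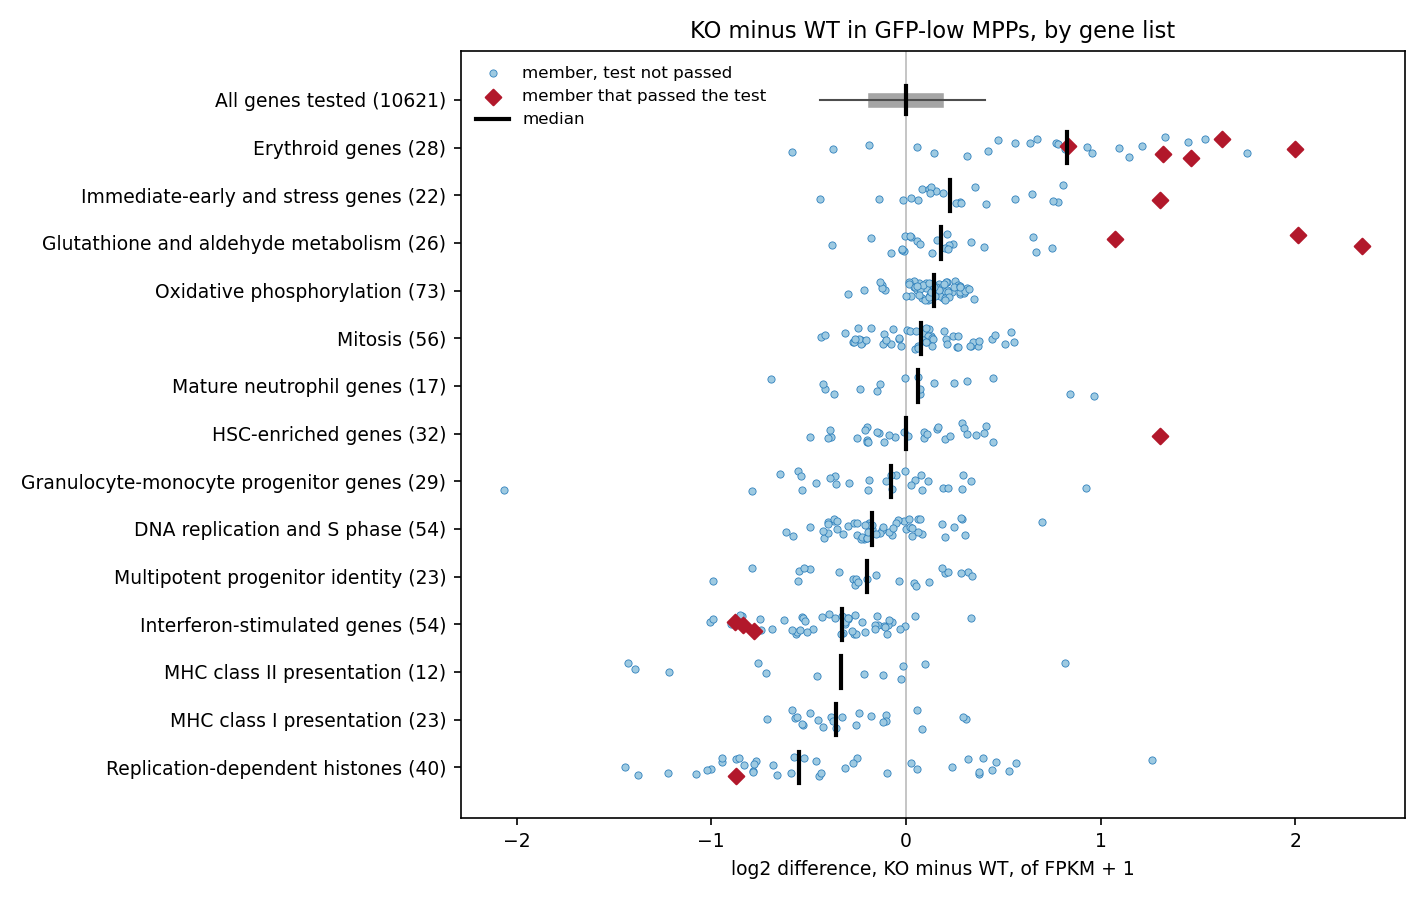
Log2 difference (KO minus WT, of FPKM + 1) of each tested member of 14 gene lists in GFP-low MPPs; red diamonds passed the test, black ticks are medians, and the grey bar and line at the top span the 25th to 75th and the 5th to 95th percentiles of all 10621 genes. Erythroid genes lie to the right with a median of 0.82, and interferon-stimulated, MHC class I and replication-dependent histone genes to the left with medians of -0.33, -0.36 and -0.55.

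Replication-dependent histone genes, which supply the histones for new DNA in S phase and end in a stem-loop instead of a polyA tail, had a negative median. H4c4, a histone H4 gene, passed the test, at 13.4, 10.6 and 12.2 FPKM in KO, against 23.9, 23.7 and 21.1 FPKM in WT (log2 difference -0.87, 95% interval -1.15 to -0.59, adjusted p = 0.0350). Of 64 genes on the list, 58 were in the table and 40 were tested. Below 0 lay 28, 11 had no overlap with KO lower (27.5%, against 9.33% of all genes), and the median log2 difference was -0.55. H2bc4, a histone H2B gene, had the opposite sign, at 26.1, 57.8 and 76.5 FPKM in KO, against 16.8, 22.8 and 20.0 FPKM in WT (log2 difference 1.27, adjusted p = 0.181). The libraries were made from polyA RNA, which holds these RNAs in part only, and the genes are near-copies of each other, so the values of single genes are uncertain. Without any 1 library the median stayed between -0.79 and -0.41.

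Genes of DNA replication gave no call. Of 54 tested, 39 lay below 0, 15 had no overlap with KO lower (27.8%, against 9.33% of all genes), and the median log2 difference was -0.17. With 1 library left out that median ran from -0.24 without KO replicate 3 to -0.04 without KO replicate 2. Dnmt1, the maintenance DNA methyltransferase, was at 16.8, 15.5 and 15.5 FPKM in KO, against 22.8, 23.9 and 22 FPKM in WT (log2 difference -0.50, adjusted p = 0.109). Mcm3, part of the replicative helicase, was at 73.9, 63.8 and 67.5 FPKM in KO, against 85.1, 88.2 and 92.1 FPKM in WT (log2 difference -0.37, adjusted p = 0.210). In both genes all KO libraries lay below all WT libraries. Ccne1, the cyclin of S phase entry, was an exception in the other direction, at 13.4, 14.6 and 16.6 FPKM in KO, against 10.4, 7.66 and 8.34 FPKM in WT (log2 difference 0.70, adjusted p = 0.107). Mitosis genes were spread around 0, with 34 of 56 above 0, 4 without overlap in each direction (7.14%, against 9.73% of all genes with KO higher and 9.33% with KO lower) and a median of 0.08, which ran from -0.02 without WT replicate 3 to 0.20 without WT replicate 2. Mki67, a marker of cycling cells, was at 4.49, 3.56 and 4.02 FPKM in KO, against 3.38, 4.21 and 3.42 FPKM in WT.

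Outside these groups, the falls that passed were Ctsw, F2r and Scd2. Ctsw, cathepsin W, a protease of T and NK cells, was at 6.44, 4.26 and 3.84 FPKM in KO, against 19.2, 15.2 and 15.8 FPKM in WT (log2 difference -1.62, 95% interval -2.03 to -1.21, adjusted p = 0.0238), with 75 to 492 reads a library. All KO libraries stood below every WT library. The 4 T and NK cell markers summed to 0.133 to 0.938 FPKM in KO and 0.368 to 1.88 FPKM in WT, the 17 genes of the T and NK cell list found in the table to 135 to 137 FPKM in KO and 129 to 179 FPKM in WT, and their part in the fall was not tested. Ctsw overlaps Fibp, whose own log2 difference was 0.03. F2r, the thrombin receptor PAR1, was at 4.71, 5.39 and 7.55 FPKM in KO, against 13.5, 12.6 and 14.6 FPKM in WT (log2 difference -1.10, 95% interval -1.47 to -0.72, adjusted p = 0.0421). It was the 1 member that passed among 17 tested genes of megakaryocytes and platelets, where 0.0942% of all genes were called lower. The median of these 17 genes was -0.10 and ran from -0.15 without KO replicate 1 to 0.13 without KO replicate 3. Scd2, a fatty acid desaturase, was at 15.2, 16.3 and 16.4 FPKM in KO, against 25.3, 27.7 and 27.2 FPKM in WT (log2 difference -0.71, 95% interval -0.95 to -0.47, adjusted p = 0.0421).

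Among lineage lists other than the erythroid one, granulocyte-monocyte progenitor genes had 0 calls among 29 tested and a median of -0.08, which ran from -0.45 without KO replicate 1 to 0.11 without KO replicate 2. Elane, neutrophil elastase, was at 229, 18.8 and 2.74 FPKM in KO, against 150.3, 146 and 55.1 FPKM in WT, which shows the spread of these genes between libraries of 1 group. Mature neutrophil genes had 0 calls among 17 and a median of 0.06, which ran from -0.48 without KO replicate 1 to 0.31 without KO replicate 3. Their summed level was 3931 to 10389 FPKM in KO and 4804 to 9149 FPKM in WT. HSC-enriched genes, apart from Nr4a1, gave no call among 32 tested, where 0.226% of all genes were called higher. Their median was 0.00 and ran from -0.15 without KO replicate 2 to 0.12 without KO replicate 3. Of the 32, 9 had no overlap with KO higher (28.1%, against 9.73% of all genes) and 3 with KO lower (9.38%, against 9.33%). Of 73 oxidative phosphorylation genes 67 lay above 0 (50.4% of all genes did) and 0 passed, and 11% had no overlap with KO higher, near the 9.73% of all genes. Their median was 0.15, and with 1 library left out it ran from 0.05 without KO replicate 3 to 0.23 without KO replicate 2.

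The same contrast in other populations gave fewer calls. In GFP-high MPPs 0 of 10789 genes passed and 765 reached an unadjusted p under 0.05 (7.09%), in GFP-low HSCs 0 of 10705 passed and 917 did (8.57%), and in total MPPs, taken 1 week after the first poly(I:C) dose with 4 libraries a group, 15 of 13916 passed (0.108%) and 2305 reached an unadjusted p under 0.05 (16.6%). Each of these differences was taken within its own table, because every table was scaled on its own. Whether the KO effect differs was tested directly. Against GFP-high MPPs the 1 call among 10617 genes (0.00942%) was the microRNA gene Mir7001, which has 2 reads or fewer a library and entered the test only through its GFP-low KO libraries, so that it is no result of this test, and 296 reached an unadjusted p under 0.05 (2.79%). Against GFP-low HSCs 0 of 10616 passed, and 491 reached an unadjusted p under 0.05 (4.63%).

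Values of some genes that rose in GFP-low MPPs are given side by side, and all were picked on their GFP-low MPP value. Such picking tends to shift their differences to other populations away from 0, and the intervals of these differences with them. Epor had a log2 difference of 1.32 in GFP-low MPPs, -0.10 in GFP-high MPPs, 0.57 in GFP-low HSCs and 1.32 in total MPPs, and its effect in GFP-low minus GFP-high MPPs was 1.43 (95% interval 0.32 to 2.53, adjusted p = 0.999). Gata1 had 1.62, 0.35, 0.86 and 1.48 in the same order, with a difference to GFP-high MPPs of 1.27 (-0.11 to 2.65). Neither gene passed the test of the difference. Aldh1a7 had 2.34 in GFP-low MPPs, 0.20 in GFP-high MPPs, 0.24 in GFP-low HSCs and 1.88 in total MPPs, with a difference to GFP-high MPPs of 2.15 (1.04 to 3.25, adjusted p = 0.999), which did not pass either. Of the 10 named rises, Rhag, Spp1 and Ctse had the closest values in GFP-low MPPs and GFP-low HSCs. Rhag had 2.00 and 1.94, Spp1 1.63 and 1.72, and Ctse 1.23 and 1.24. Others lay further apart, such as Prss50 at 1.86 and 0.49 and Gm15915 at 2.12 and 1.15. Ctsw had log2 differences below 0 in all 4 populations, at -1.62, -0.98, -1.13 and -1.15.

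The erythroid list had medians of 0.82 in GFP-low MPPs, 0.23 in GFP-high MPPs, 0.67 in GFP-low HSCs and 1.10 in total MPPs. Interferon-stimulated genes had -0.33, -0.35, -0.35 and -0.27 in the same order, with all 4 below 0. Histone genes had -0.55 in GFP-low MPPs, -0.63 in GFP-high MPPs and, among GFP-low HSCs, -0.37, against 0.58 over the 4 of them matched in total MPPs. Mitosis genes had 0.08 in GFP-low MPPs, -0.20 in GFP-high MPPs, -0.12 in GFP-low HSCs and 0.65 in total MPPs. No test was made of a list. Of the 25 genes that passed here and were tested in total MPPs, a separate cohort, 24 had the same sign there. Of all 9750 genes found in both, 65.5% did. In GFP-high MPPs it was 26 of 27 (65.5% of all genes), and in GFP-low HSCs 27 of 27 (60.6%). The genes that passed were picked for clear differences, while the 25th and 75th percentiles of all genes were -0.157 and 0.154. The shares are thus of unlike sets.

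**Figure D5:**
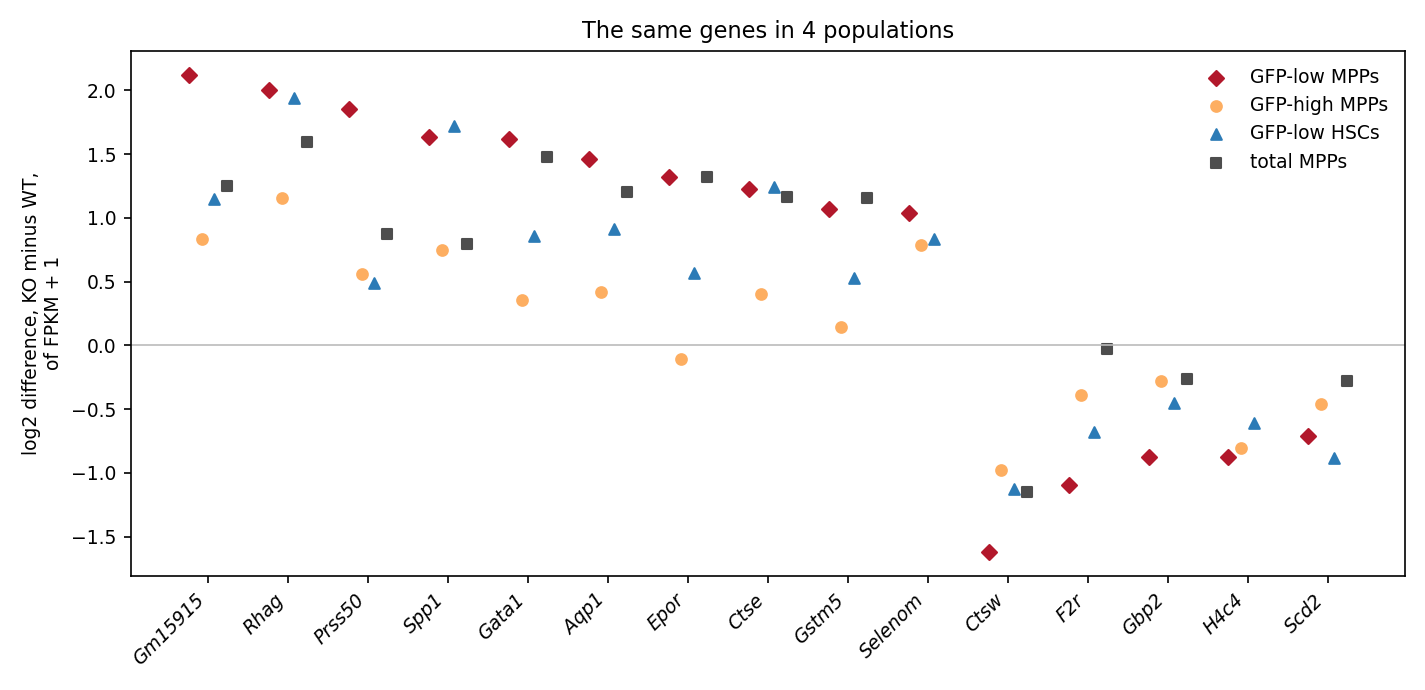
Log2 difference (KO minus WT, of FPKM + 1) of the 15 named rises and falls, left to right in GFP-low MPPs (diamonds), GFP-high MPPs (circles), GFP-low HSCs (triangles) and total MPPs (squares). The genes were picked on the GFP-low MPP value; Ctsw lies below 0 in all 4 populations, while Epor is at 1.32, -0.10, 0.57 and 1.32.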

How the data were processed

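RNA of GFP-low MPPs (3 KO, 3 WT) was made into libraries with SMART-Seq2 and Nextera XT, per the labels' protocols. The submitters' processing notes name STAR, DESeq2, HOMER and mm10, without versions; counting strand is not given in the sources used here. The authors deposited FPKM values per gene, 1 table a population, whose scaling differs between tables. Whole reads were recovered from the FPKM steps for 99.9939% of genes (within 0.01 of a whole number) and give depth and reads per gene.

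Genes at 1 FPKM or more in at least 3 of 6 columns were tested as log2(FPKM + 1) in limma 3.58.1 (R 4.3.3) with an intensity trend, two-sided, with Benjamini-Hochberg adjusted p under 0.05 over all 10621 genes. Differences of KO effects were interaction contrasts, each effect within its table. GFP-low and GFP-high MPP libraries of 1 number deviate together in each genotype (r of 0.139 to 0.391, against -0.301 to -0.0062 for unlike numbers). The numbers thus appear to pair them, and a fit with that block left the count at 1. The intervals printed for these differences come from the fit without the block. The series design calls replicates biological. Members and lists were chosen with earlier results of these data known. Named genes were up to 10 rises and 10 falls with the largest log2 difference, no overlap and a mean log2 of 3 or more, the HIRA complex and H3.3 genes, and for each of 31 lists the members that passed and those of smallest p; other genes named were chosen after their values were seen. Tests were tried on simulated data, where unchanged genes of a few reads were called too often. Alternatives covered pseudocount, filter, scaling, weights, trend, joint fit, block and each library left out. Promoters are RefSeq windows. Values of some single genes are not reported here. Python 3.11.15, pandas 2.3.3 and matplotlib 3.10.9 were used.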

Additional observations from a re-analysis of the deposited data

Results flagged for a closer look

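The microRNA gene Mir7001 had a KO effect in GFP-low MPPs that differed from that in GFP-high MPPs, by 2.44 on the log2(FPKM + 1) scale. In GFP-low MPPs it was at 1.88, 1.36 and 2.13 FPKM in KO and listed at 0 in the 3 WT libraries, and in GFP-high MPPs it was listed at 0 in the 3 KO libraries and stood at 0.839, 1.04 and 1.03 FPKM in WT. These values stand for 2, 1 and 2 reads in GFP-low KO and 1 read in each GFP-high WT library. It entered the test only through its 3 KO libraries at 1 FPKM or more, so the difference was fixed in part by how it entered and is given as a value with no test. With genes limited to a mean FPKM of 5 or more it was not tested.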

How the results depend on the processing

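The count of 34 genes moved with the processing. It was 2 with no filter on low values, 12 with no intensity trend, 73 (38 higher, 35 lower, 18 shared with the 34) in the joint fit with all 8 GFP groups, and 0 to 39 when 1 library was left out. The other settings, from pseudocounts to voom on recovered reads (chosen after seeing the data), gave 27 to 38. Same-numbered KO and WT libraries did not stand out from unlike numbers (r of 0.142, -0.0671 and 0.134, against -0.303 to 0.176), so no pairing by number was seen. The fit with the replicate block called 52 (36 higher, 16 lower, 30 shared). The cause of these moves was not tested. None of the 34 genes changed direction, which their groups without overlap fixed for the fits that left out 1 library. Genes named without a call could change sign, such as Ubn1, which ran from -0.05 to 0.14. Of 598 recomputed values of the 34 genes, 327 kept the call and 271 lost it. Of 850 values of 48 genes named without a call, 7 passed. Hira stayed between -0.32 and -0.07 with adjusted p of 0.509 to 0.901, and had no value at a mean FPKM of 5 or more. The 1 call against GFP-high MPPs, Mir7001, became 0 at a mean FPKM of 5 or more and 0 in the joint fit, and 1 to 2 without 1 library (2 without KO GFP-high MPP replicate 1). The difference from GFP-low HSCs gave 0 to 1 without 1 library (1 without KO GFP-low HSC replicate 2 or 3). Of 434 recomputed list medians, 22 moved; sample weights, no trend, block and joint fit were not run for them. With 5818909 to 8949273 reads a library, genes of a few reads are poorly resolved.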

Other observations

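Further groups held no called gene unless one is named here, and none of their medians was tested; ranges in parentheses are medians with 1 library left out. Il18, an inflammatory cytokine, was at 23.7, 21 and 8.25 FPKM in KO, against 34.3, 36.5 and 36.5 FPKM in WT without overlap (log2 difference -1.10, adjusted p = 0.226), and its list of 25 inflammatory signalling genes had a median log2 difference of -0.21 (-0.26 without WT replicate 1 to -0.07 without KO replicate 3). Cdkn1a, the p53-induced inhibitor p21, was at 3.98, 4.26 and 3.44 FPKM in KO, against 1.57, 2.5 and 0.957 FPKM in WT (log2 difference 0.91, adjusted p = 0.144), in a p53 list with 14 of 18 members above 0 (50.4% of all genes lay above 0) and a median of 0.14 (0.13 without KO replicate 3 to 0.24 without KO replicate 2). Nr4a1 was the 1 call among 20 genes of CDK inhibitors and quiescence, where 0.226% of all genes were called higher. The median of these 20 genes was 0.06 (0.00 without WT replicate 1 to 0.13 without WT replicate 2). Fcgr2b, an inhibitory Fc receptor, was at 3.35, 4.14 and 2.97 FPKM in KO, against 1.23, 1.49 and 1.35 FPKM in WT (log2 difference 0.92, adjusted p = 0.0639). Among 19 genes of lymphoid priming, with a median of -0.05 (-0.38 without KO replicate 1 to -0.02 without KO replicate 3), Cnn3, an actin-binding calponin, was at 7.67, 3.88 and 4.66 FPKM in KO, against 1.5, 2.21 and 1.74 FPKM in WT (log2 difference 1.15, adjusted p = 0.0905) and Tespa1, a T cell development gene, was at 9.05, 11.2 and 5.77 FPKM in KO, against 13.4, 20.6 and 15.8 FPKM in WT (log2 difference -0.88, adjusted p = 0.181).

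B cell genes had 6 of 6 tested members below 0 and a median of -0.43 (-0.61 without WT replicate 3 to -0.26 without WT replicate 1). The median of 9 genes of mast cells, basophils and eosinophils was -0.29 and changed sign with single libraries (-0.85 without KO replicate 1 to 0.18 without KO replicate 2). It was -0.16 for 15 genes of macrophages and dendritic cells (-0.53 without KO replicate 1 to -0.12 without WT replicate 2), 0.08 for 4 of T and NK cells (-0.07 without WT replicate 3 to 0.24 without WT replicate 2) and 0.08 for 5 of stroma and endothelium (-0.09 without KO replicate 2 to 0.14 without WT replicate 2). Ribosome biogenesis genes had 34 of 41 above 0 and a median of 0.11 (0.02 without KO replicate 3 to 0.18 without KO replicate 2). Medians were 0.05 for 20 apoptosis genes (-0.05 without KO replicate 3 to 0.07 without KO replicate 2), -0.06 for 21 glycolysis genes (-0.21 without KO replicate 1 to -0.02 without KO replicate 2) and -0.07 for 28 Polycomb, DNA methylation and chromatin genes (-0.07 without KO replicate 2 to -0.01 without WT replicate 3). They were 0.04 for the 5 genes of the HIRA complex (-0.02 without KO replicate 3 to 0.14 without KO replicate 2) and 0.01 for 21 H3.3 and histone chaperone genes (-0.05 without KO replicate 3 to 0.10 without KO replicate 2). Of 5 sex-linked genes only Xist was tested (log2 difference -1.57, and -0.03 without KO replicate 2).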
